A study of Mus musculus with 10 samples.

Results

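Pdgfb, an endothelial ligand that recruits the supporting cells of the vessel wall, was followed in tumour endothelium together with 9 genes of mural cells (Pdgfrb, Rgs5, Abcc9, Kcnj8, Cspg4, Notch3, Acta2, Tagln and Des). The rule lists them by name and uses no measured value, and all 10 were found among the 28454 gene symbols of the series. The libraries hold RNA of cells carrying CD31, an endothelial surface protein, sorted with magnetic beads from B16F10 tumours after removal of CD11b-positive myeloid cells. B16F10 is a mouse melanoma cell line. Wild-type libraries (4) came from adult mice whose strain label is Cdh5-CreERt2, an inducible Cre recombinase under a promoter active in endothelium. Shb-inactivated libraries (6) came from adult Shbflox/flox/Cdh5-CreERt2 mice, so both groups carry the Cre, and the promoter of the Cre is one of endothelial, not of mural cells. The comparison asks what loss of this adaptor protein of tyrosine kinase receptors does to the transcripts of tumour endothelium. The tissue label reads tumours, while the source label also names lungs.

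Mural cells are the pericytes of capillaries and the smooth muscle cells of larger vessels, which sit on the outer face of the endothelium. Sprouting endothelial cells secrete PDGF-B, a growth factor held near the vessel by heparan sulphate, and pericytes that carry PDGF receptor beta follow it and attach. In tumours this coat is often thin or loosely attached, and pericytes may take up contractile proteins such as alpha smooth muscle actin.

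Endothelial markers were high in every library, 3280 to 5397 FPKM summed over 12 genes, with Pecam1, the gene for CD31, at 569 to 1237 FPKM. FPKM scales fragments by transcript length and library size, so levels can be compared between genes. Shb, the targeted gene, was 2.78 to 5.44 FPKM in the 4 wild-type libraries and 0.37 to 1.44 FPKM in the 6 Shb-inactivated ones. No read totals are given, so the depth is unknown. Among 222 odorant, vomeronasal and taste receptor genes, the most common nonzero value hints at the weight of a single fragment. It was 0.1 FPKM in replicate 1 of wild type and 0.07 in replicate 2 of the inactivated group, and 0.01 to 0.03 in the rest. Replicate 3 of wild type and replicates 3 and 4 of the inactivated group were rich in myeloid transcripts, with 3953 to 6388 FPKM summed over 12 myeloid markers and 51.8 to 594 in the other 7 libraries. Replicate 1 of wild type and replicates 1 and 2 of the inactivated group had the lowest summed small nucleolar RNA (snoRNA), 636 to 1851 FPKM against 3139 to 11473. Wild-type replicate 1 also had the most melanoma transcripts, 1161 FPKM summed over 10 markers against 15.2 to 359 elsewhere.

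In GRCm38 (GENCODE vM21) the genes lie on 7 chromosomes, among them Pdgfb at chr15:79995874-80014977 on the minus strand, Rgs5 at chr1:169655501-169695813 on the plus strand, Abcc9 at chr6:142587862-142702315 and Kcnj8 at chr6:142564837-142571614, both on the minus strand. Values are for whole genes, not for single exons or transcripts. Upstream sequence was found in RefSeq (GRCm38.p6) for 7 of the 10 genes and was searched over the 250 bases before a RefSeq start, which is not always the outermost one. Windows of 3 genes are shown because their levels differed in pattern across libraries: Rgs5 had the widest range, Kcnj8 stood in a very uneven ratio to Pdgfrb, and Notch3 was among the lowest. The window of Rgs5 lies at chr1:169655251-169655500 on the plus strand, Kcnj8 at chr6:142571615-142571864 on the minus strand, and Notch3 at chr17:32166897-32167140 on the minus strand. Capitals mark GGGCGG, the core of the GC box, on either strand.
Rgs5: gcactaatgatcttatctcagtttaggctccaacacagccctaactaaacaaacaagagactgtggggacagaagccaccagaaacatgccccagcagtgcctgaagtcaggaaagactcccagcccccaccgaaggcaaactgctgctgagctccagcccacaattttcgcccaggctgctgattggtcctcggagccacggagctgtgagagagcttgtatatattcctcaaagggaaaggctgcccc
Kcnj8: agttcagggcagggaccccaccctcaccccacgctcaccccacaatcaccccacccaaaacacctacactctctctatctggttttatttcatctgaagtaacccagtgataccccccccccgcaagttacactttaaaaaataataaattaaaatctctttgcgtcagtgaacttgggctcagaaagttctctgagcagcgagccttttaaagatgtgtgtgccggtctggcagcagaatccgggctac
Notch3: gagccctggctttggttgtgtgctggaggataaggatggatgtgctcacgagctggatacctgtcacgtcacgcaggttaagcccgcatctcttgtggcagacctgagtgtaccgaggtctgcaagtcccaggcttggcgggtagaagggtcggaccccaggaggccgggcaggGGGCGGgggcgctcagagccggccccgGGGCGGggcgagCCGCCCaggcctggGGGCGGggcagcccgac

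The GGGCGG core occurred 4 times before Notch3 and at least once in the windows of 4 of the 7 genes (Notch3, Cspg4, Des and Abcc9), against 32.7% of 32851 mouse windows of the same length. The Notch3 window had 68.8% G and C, and those of Rgs5 and Kcnj8 had 53.6% and 49.2%, with a median of 52.4% over all windows. TGGGAA, the core of the site read by the Notch partner RBPJ, occurred in the windows of Abcc9 and Acta2 (2 of 7) and in 21.6% of all windows. By the outermost annotated start, the whole Abcc9 window and all but 33 bases of the Acta2 window lie inside the gene. Both TGGGAA matches and the GGGCGG match of Abcc9 therefore lie within a gene. The CArG box of serum response factor and TATAAA occurred in none of the 7 windows, and in 1.47% and 12.4% of all windows. As the windows of Abcc9 and Acta2 lie wholly or mostly inside the gene, this does not show their absence before those genes. No window was available for Pdgfb, Pdgfrb or Tagln. Both strands were searched, and no match overlapped another. These are letter matches only.

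Pdgfb, the endothelial ligand, was the most abundant of the 10 genes. In the 4 wild-type libraries, in the order of their replicate numbers, it was 128, 144, 82.2 and 152 FPKM, and it was 89.0 at the lowest, 142 at the median and 208 at the highest in the Shb-inactivated libraries. The groups overlapped, with the myeloid-rich libraries lowest in each. The means were 127 ± 31.2 FPKM (SD, n = 4) and 150.5 ± 48.3 FPKM (SD, n = 6). The difference of the inactivated group from wild type in log2(FPKM + 1), called the log2 difference here, was 0.22 (SE 0.26, 95% interval -0.36 to 0.81), with an adjusted p of 0.989 by limma and an exact permutation p of 0.49. Shb-inactivated replicates 1 and 2 had the 2 highest levels, 208 and 207 FPKM, and both are among the libraries low in snoRNA. Without the 3 libraries low in snoRNA the means were 126 and 122 FPKM and the log2 difference was -0.02 (exact permutation p = 0.914). Platelets also store PDGF-B. The summed level of 9 platelet markers was 172 to 1006 FPKM in wild-type and 94.3 to 578 FPKM in Shb-inactivated libraries, no marker was at 0 in all libraries, and all 8 tested had a fold change below 0. The highest sums were mostly Pf4, at 498 to 926 FPKM in the myeloid-rich libraries and 25.7 to 154 elsewhere. Ppbp, another platelet chemokine, ran the other way within each group, and was 62.0 to 134 FPKM in wild-type and 8.93 to 58.8 FPKM in Shb-inactivated libraries. Their part in the level of Pdgfb was not tested.

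Pdgfrb, the receptor that answers PDGF-B, was far lower than its ligand. In the 4 wild-type libraries it was 3.03, 7.72, 2.48 and 12.6 FPKM, and it was 1.70, 8.54 and 15.6 FPKM at the lowest, median and highest in the Shb-inactivated libraries. Both groups spanned nearly the same range, with the highest value in Shb-inactivated replicate 5. The log2 difference was 0.27 (SE 0.57, 95% interval -1.005 to 1.54, limma adjusted p = 0.990). Without wild-type replicate 3 the sign turned to -0.03. The ratio of ligand to receptor ran from 8.63 in Shb-inactivated replicate 5 to 52.4 in Shb-inactivated replicate 3.

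Of the 7 genes of the ligand and receptor family, 4 passed the filter on low values, and none passed the threshold. Pdgfa, whose product acts mainly through PDGF receptor alpha, was 5.14 ± 0.783 FPKM in wild type and 6.88 ± 2.15 FPKM in Shb-inactivated libraries. Pdgfd, a further ligand of PDGF receptor beta, was 37.1 ± 13.6 and 42.4 ± 18.2 FPKM, with 77.7 FPKM in Shb-inactivated replicate 5. Pdgfc was 4.00 to 7.47 FPKM in the 3 myeloid-rich libraries and at most 0.87 elsewhere. Pdgfra, the fibroblast receptor, was 0.11 to 1.8 FPKM, and Pdgfrl, a receptor-like gene, was at most 0.25 FPKM. Heparan sulphate and processing genes numbered 11, all tested. Of them 5 had a fold change above 0 and 6 below, with a median of -0.01. Ext1, which lengthens heparan sulphate chains, was 58.4 and 75.5 FPKM, Ndst1, which sulphates them, was 24.1 and 28.5 FPKM, and Furin, a protease that matures growth factors, was 18.7 and 18.4 FPKM.

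**Figure D1:**
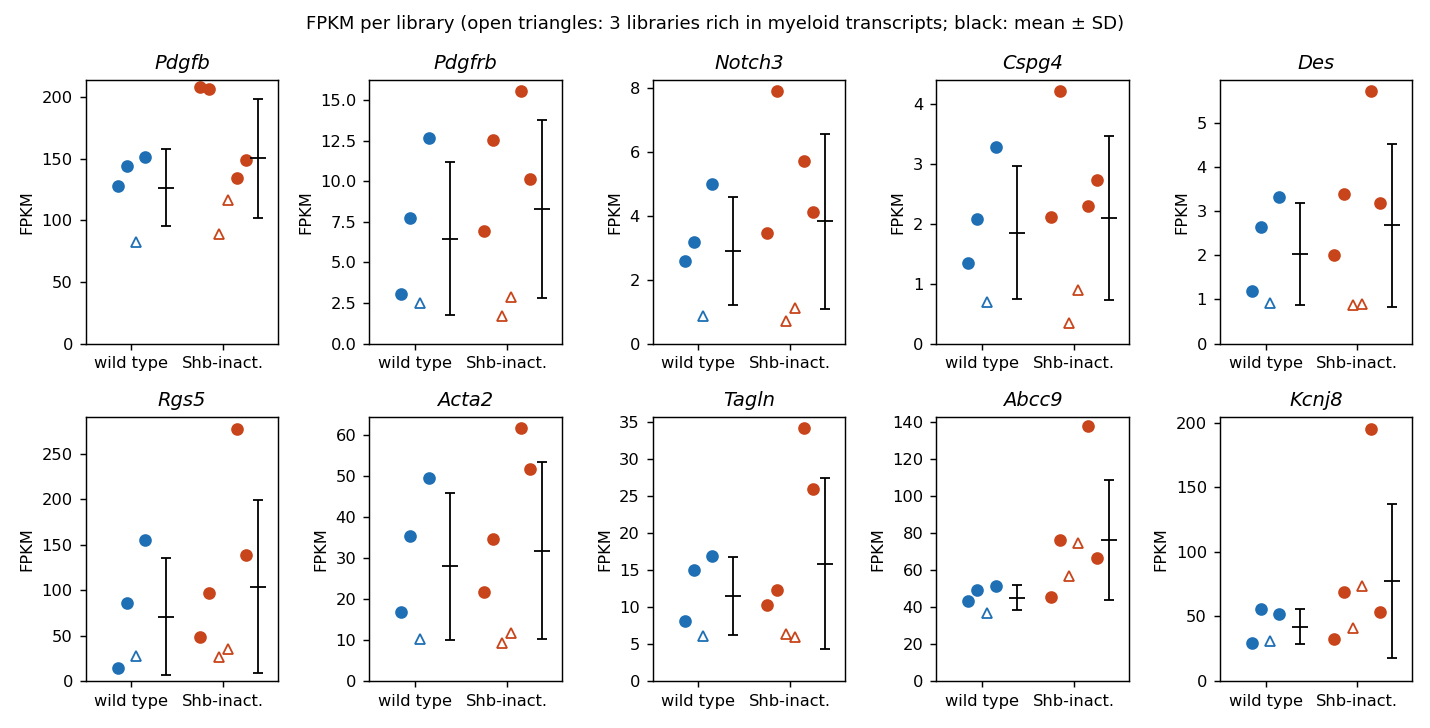
FPKM of each of the 10 genes (vertical axes, each starting at 0) in every wild-type (blue, n = 4) and Shb-inactivated (red, n = 6) library, with the mean ± SD in black; open triangles are the 3 myeloid-rich libraries. The groups overlap for every gene, the triangles lie below all circles for 7 genes, and Shb-inactivated replicate 5 stands highest for Kcnj8 at 195 FPKM and for Abcc9 at 138 FPKM.

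Rgs5, a regulator of G-protein signalling long used as a pericyte marker, had the widest range of the 10 genes. In the 4 wild-type libraries it was 14.6, 85.8, 28.0 and 155 FPKM, and it was 26.5, 73.0 and 277 FPKM at the lowest, median and highest in Shb-inactivated libraries. The highest library held 19.0 times the lowest, and the groups overlapped over most of that range. The log2 difference was 0.60 (SE 0.78, 95% interval -1.11 to 2.32, limma adjusted p = 0.989). It was 0.05 without wild-type replicate 1, the library lowest in Rgs5 and richest in melanoma transcripts, and 0.23 without Shb-inactivated replicate 5. The part of melanoma transcripts in this was not tested.

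Notch3, the receptor through which endothelial Jagged ligands act on mural cells, and Cspg4, which encodes the NG2 proteoglycan of the pericyte surface, were low. Notch3 was, in the 4 wild-type libraries, 2.57, 3.19, 0.85 and 4.98 FPKM, and 0.70, 3.79 and 7.90 FPKM at the lowest, median and highest in Shb-inactivated libraries. Cspg4 was 1.34, 2.08, 0.70 and 3.29 FPKM in wild type and 0.35, 2.21 and 4.22 FPKM in the other group. For both genes the 3 myeloid-rich libraries were lowest and Shb-inactivated replicate 2 was highest, with overlapping groups. The log2 differences were 0.20 (SE 0.50) and 0.07 (SE 0.38), with limma adjusted p-values of 0.994 and 0.996. Both turned without wild-type replicate 3 (-0.12 and -0.15) and without Shb-inactivated replicate 2 (-0.02 and -0.11). Cspg4 also turned without Shb-inactivated replicate 6 (-0.0085).

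The contractile and cytoskeletal genes gave the same picture. Acta2, alpha smooth muscle actin, was 16.7, 35.3, 10.2 and 49.6 FPKM in the 4 wild-type libraries and 9.16, 28.1 and 61.8 FPKM at the lowest, median and highest in Shb-inactivated libraries. Tagln, which encodes the actin-binding protein transgelin, was 8.08, 15, 6.07 and 16.9 FPKM in wild type and 5.95, 11.3 and 34.2 FPKM in the other group. Des, the muscle intermediate filament desmin, was 1.18, 2.65, 0.92 and 3.32 FPKM in wild type and 0.87, 2.60 and 5.73 FPKM in the other group. Shb-inactivated replicate 5 was highest for all 3 genes and the myeloid-rich libraries were lowest. The log2 differences were 0.11 (SE 0.59) for Acta2, 0.26 (SE 0.49) for Tagln and 0.22 (SE 0.39) for Des, with limma adjusted p-values of at least 0.989. Acta2 turned to -0.14 and Tagln to -0.01 without Shb-inactivated replicate 5, and Acta2 also turned without wild-type replicate 1 (-0.05), wild-type replicate 3 (-0.27) or Shb-inactivated replicate 6 (-0.09). Skeletal muscle also makes desmin, and 13 skeletal muscle markers summed to 0.98 to 4.41 FPKM in a library.

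Abcc9 and Kcnj8 stood nearest to a group difference. They encode the SUR2 and Kir6.1 subunits of one ATP-sensitive potassium channel, which is known in pericytes and smooth muscle and has been described in some endothelial cells, and they are neighbours on chromosome 6. Abcc9 was, in the 4 wild-type libraries, 43.0, 49.3, 36.8 and 51.3 FPKM, and 45.5, 70.7 and 138 FPKM at the lowest, median and highest in Shb-inactivated libraries. Of the 6 Shb-inactivated libraries, replicate 1 alone lay inside the wild-type range. Its means were 45.1 ± 6.57 FPKM (SD, n = 4) and 76.3 ± 32.2 FPKM (SD, n = 6), a ratio of 1.69. The log2 difference was 0.67 (SE 0.26, 95% interval 0.10 to 1.24), with an exact permutation p of 0.0429 and a limma p of 0.0264, which became 0.989 after adjustment over all 12805 genes tested. Without Shb-inactivated replicate 5 the mean of the inactivated group was 64.0 FPKM and the log2 difference 0.48 (exact permutation p = 0.0476). Without wild-type replicate 1 the difference was 0.65 and the exact permutation p 0.0952, and without the 3 myeloid-rich libraries they were 0.64 and 0.171. The unadjusted limma p was above 0.05 without wild-type replicate 1 (0.0556) or 3 (0.0739), without the 3 myeloid-rich libraries (0.0854) and with the endothelial (0.17) or melanoma (0.107) covariate.

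Kcnj8 was, in the 4 wild-type libraries, 29.6, 55.8, 30.8 and 51.9 FPKM, and 32.4, 61.2 and 195 FPKM at the lowest, median and highest in Shb-inactivated libraries. The groups overlapped more than for Abcc9, and Shb-inactivated replicate 5 lay far above all other libraries. The means were 42.05 ± 13.8 FPKM (SD, n = 4) and 77.5 ± 59.9 FPKM (SD, n = 6), and the latter was 53.9 ± 17.7 FPKM (SD, n = 5) without replicate 5. The log2 difference was 0.66 (SE 0.44, 95% interval -0.31 to 1.63, limma adjusted p = 0.989), and 0.34 without that replicate.

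None of the 10 genes passed the threshold, an adjusted p under 0.05 by limma, where 0.0% of the 12805 genes tested passed. Shb, the targeted gene, did not pass either. Its log2 difference was -1.27, its groups did not overlap, and its exact permutation p was 0.00476. A gene short of the threshold is therefore not shown to be unchanged. At an unadjusted limma p under 0.05 the count was 1 of 10 (Abcc9), and 442 genes or 3.45% of all genes. The background in the higher direction alone was 1.69%. All 10 genes had a fold change above 0, against 51.2% of all genes, with a median of 0.24 against 0.0055 over all genes. The members vary together, so these 10 signs are not 10 separate observations. None of the 10 had groups that did not overlap, against 0.718% of all genes. Pecam1 itself had a log2 difference of 0.35 and did not overlap between groups. Taken as a percent of Pecam1 in the same library, Abcc9, Kcnj8 and Rgs5 had differences of 0.33, 0.32 and 0.27 on the log2 scale. The other 7 genes lay between -0.33 and -0.06, and the exact permutation p-values of all 10 were 0.186 to 0.938. With the mean level of 12 endothelial markers as a covariate, 8 of the 10 fold changes were below 0, all but those of Abcc9 and Kcnj8, and the median of the 10 was -0.55. Over all 12805 genes that fit gave a median of -0.013, and 485 genes had an unadjusted limma p under 0.05. In that fit Pdgfrb was at -0.83, Notch3 at -0.75 and Cspg4 at -0.62, with unadjusted limma p-values of 0.0292, 0.0227 and 0.036, each adjusted to 0.928. The sign depended on the covariate. With the mean level of fibroblast markers instead, Pdgfrb was at 0.68, Notch3 at 0.57 and Cspg4 at 0.35. Their unadjusted limma p-values were 0.0473, 0.0272 and 0.0859 (adjusted 0.647, 0.633 and 0.691). The median of the 10 was then 0.57, against 0.00087 over all genes, and 965 genes had an unadjusted limma p under 0.05. Marker lists of other cell types mostly lay on one side of 0 as well. All 12 endothelial markers had a fold change above 0 (median 0.32), while all 12 myeloid (-0.84) and all 10 melanoma markers (-1.51) and 5 of 6 Schwann cell markers tested (-0.73) had one below 0, none past the threshold. Of 11 genes of endothelial tip cells, a list that holds Pdgfb, 9 were above 0. The part of these shifts in the fold changes of the mural genes was not tested. Marker lists used as covariates were themselves shifted between groups, so the covariate fits cannot tell library composition and genotype apart. After a CD31 sort, mural transcripts can come from mural cells carried along or from endothelium itself. Their level is therefore no direct measure of mural cells on the vessels. In such bulk libraries the number of mural cells carried along, the RNA per mural cell and endothelial expression cannot be told apart.

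**Figure D2:**
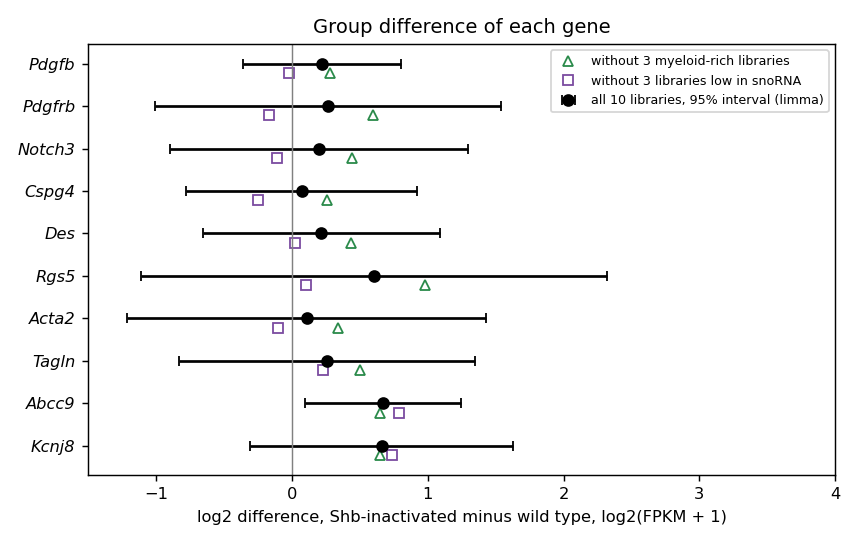
Log2 difference, Shb-inactivated minus wild type, of each gene on the log2(FPKM + 1) scale (horizontal axis), with 95% intervals from limma over 10 libraries in black. Open symbols are the differences without the 3 myeloid-rich libraries (green triangles) or without the 3 libraries low in snoRNA (purple squares); Abcc9 alone has an interval above 0 before adjustment, and 5 squares lie below 0.

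By mean level over the 10 libraries the order was Pdgfb (141 FPKM), Rgs5 (90.7), Abcc9 (63.8), Kcnj8 (63.3), Acta2 (30.3), Tagln (14.1), Pdgfrb (7.56), Notch3 (3.46), Des (2.42) and Cspg4 (2.00). Kcnj8 exceeded Acta2, Acta2 exceeded Tagln, and Pdgfrb exceeded Notch3 in 10 of 10 libraries, and Tagln exceeded Pdgfrb in 9. The neighbours Rgs5 and Abcc9, Abcc9 and Kcnj8, Notch3 and Des, and Des and Cspg4 changed places in 3 or 4 libraries and did not differ beyond their spread. Pdgfb exceeded Rgs5 in 8 libraries.

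Across libraries the mural genes varied together. Correlations of log2(FPKM + 1) were computed for all 45 pairs of the 10 genes over 10 libraries, with permutation p-values of 100000 resamples adjusted over the 45. Pdgfrb and Des had a Pearson r of 0.97 (permutation p = 1e-05, the smallest these resamples can give, adjusted 0.000225) and a Spearman rho of 0.98 (permutation p = 5e-05). Pdgfrb and Rgs5 had an r of 0.92 (permutation p = 0.00036, adjusted 0.00135) and a rho of 0.92 (permutation p = 0.00062). Leaving out the 2 libraries farthest from the median of Pdgfrb, r was 0.97 for Des and 0.93 for Rgs5. Among the 7 mural genes other than Abcc9 and Kcnj8, a division made after the values were seen, r ran from 0.71 to 0.97 with a median of 0.91, and with group means removed the median was 0.92. Without the 3 myeloid-rich libraries it ran from 0.28 (Cspg4 with Tagln) to 0.97, with a median of 0.84 over 7 libraries. The mean of the 9 mural genes also had an r of 0.80 with endothelial and -0.83 with myeloid markers. Relative to the mean of the endothelial markers, the median r of the 36 mural pairs was 0.65, against 0.80 without this scaling.

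Over the 10 libraries Abcc9 and Kcnj8 had a higher correlation with each other than either had with another mural gene. Their r was 0.95 (permutation p = 0.00013, adjusted 0.000731), their rho 0.89 (permutation p = 0.00109), and r was 0.84 without the 2 libraries farthest from the median of Abcc9. The 14 pairs of either gene with the other 7 mural genes had r from 0.31 to 0.74 with a median of 0.59. Kcnj8 and Pdgfrb had an r of 0.59 (permutation p = 0.0562, adjusted 0.0793) and a rho of 0.54 (permutation p = 0.114). In the 3 myeloid-rich libraries Pdgfrb was 1.70 to 2.85 FPKM, below the other 7 libraries, while Kcnj8 was 30.8 to 73.8 FPKM, within their range of 29.6 to 195. Abcc9 was 36.8 to 74.7 FPKM there and 43.0 to 138 in the other 7, and wild-type replicate 3 was the lowest of the 10 libraries. Without these libraries the 14 pairs had r of 0.32 to 0.93 with a median of 0.75, against 0.95 for Abcc9 with Kcnj8. By rank the order was lost: the rho of Abcc9 over 7 libraries was 0.89 with Kcnj8, Pdgfrb and Notch3 alike and 0.96 with Des. Kcnj8 stood at 24.1 and 25.9 times Pdgfrb in Shb-inactivated replicates 3 and 4, and at 4.11 to 12.6 times in the other 8 libraries.

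**Figure D3:**
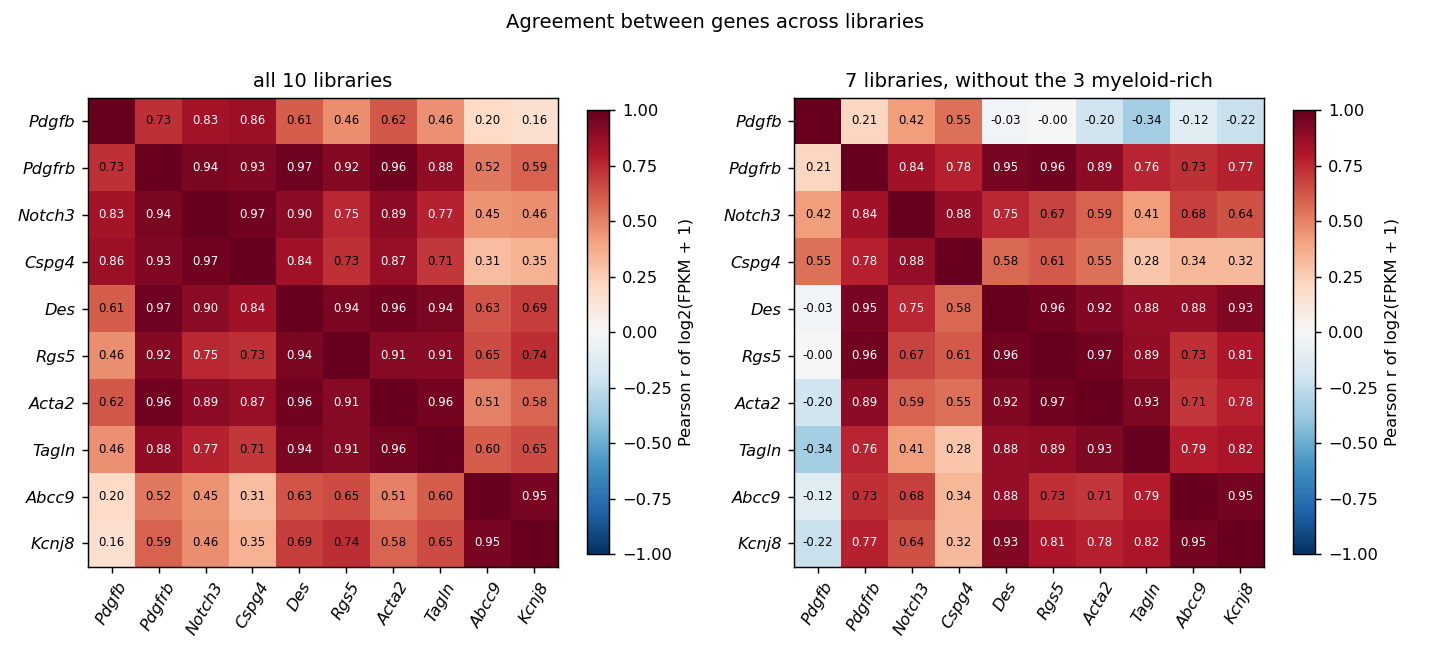
Pearson r of log2(FPKM + 1) between each pair of the 10 genes (rows and columns) over all 10 libraries on the left and over 7 libraries, without the 3 myeloid-rich ones, on the right; the colour scale runs from -1 to 1. Pdgfb with the 9 mural genes has a median r of 0.61 on the left and -0.03 on the right, while the 36 mural pairs keep medians of 0.80 and 0.78.

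The correlation of Pdgfb with the mural genes was mostly lost without the myeloid-rich libraries. Over 10 libraries its r with the 9 mural genes was 0.16 to 0.86, and 3 of the 9 pairs had an adjusted permutation p under 0.05. With Cspg4 it was 0.86 (permutation p = 0.00176, adjusted 0.0044; rho 0.84, permutation p = 0.00363), and 0.69 without the 2 libraries farthest from the median of Pdgfb. With Pdgfrb r was 0.73 (permutation p = 0.0174, adjusted 0.0326), rho was 0.67 (permutation p = 0.0388, adjusted 0.0698), and r fell to 0.45 without 2 such libraries. Without the 3 myeloid-rich libraries r with Pdgfrb was 0.21 over 7 libraries, and with the 9 genes it was -0.34 to 0.55. Those 3 libraries, left out after the values were seen, had the lowest levels of Pdgfb and Pdgfrb. Leaving them out also narrows the range of both genes, so the lower r cannot show what the relation rests on. Without the 3 libraries low in snoRNA the median r with the 9 genes was 0.83, against 0.61 over all 10. All 7 other libraries had more Pdgfb than any myeloid-rich one, 128 to 208 against 82.2 to 116 FPKM. The same held for Pdgfrb, Cspg4, Notch3, Acta2, Tagln and Des, and not for Rgs5, Abcc9 or Kcnj8. The part of myeloid RNA in these lower levels was not tested.

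**Figure D4:**
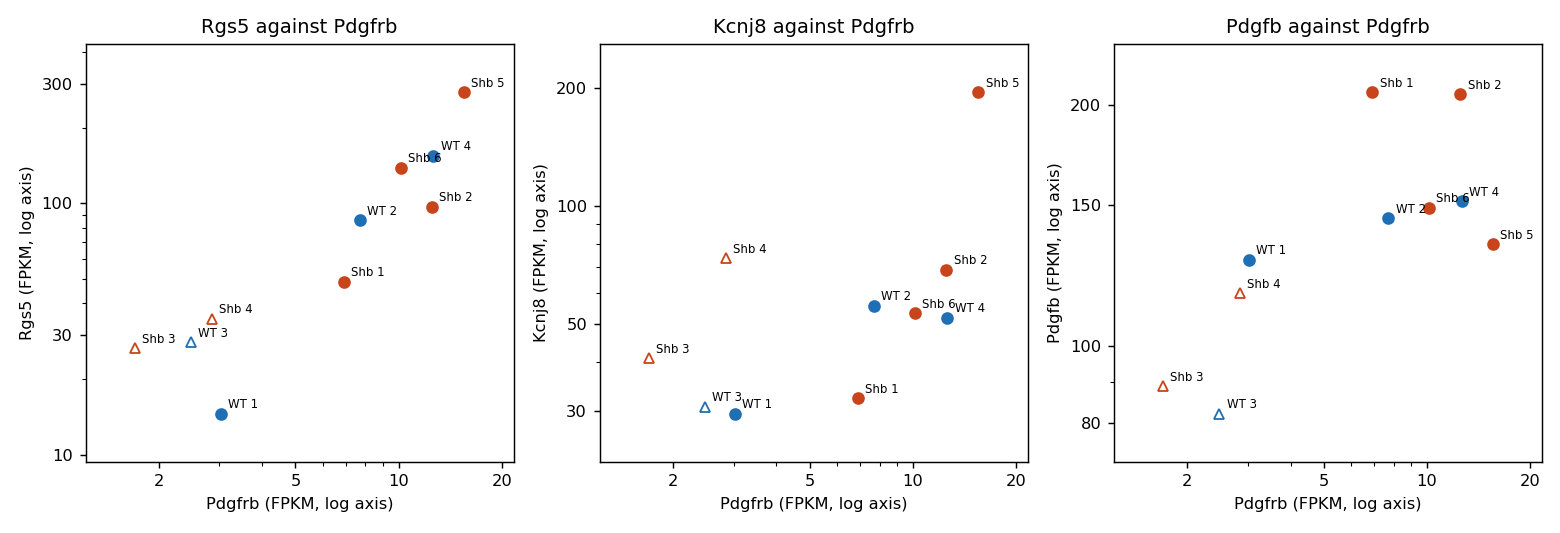
Rgs5, Kcnj8 and Pdgfb against Pdgfrb, in FPKM on log axes, 1 point per library (WT, wild type, blue; Shb, Shb-inactivated, red; open triangles, myeloid-rich). Rgs5 climbs with Pdgfrb, Kcnj8 of Shb replicates 3 and 4 lies high for their Pdgfrb of 1.70 and 2.85 FPKM, and the highest Pdgfb levels are those of Shb replicates 1 and 2.

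Further pericyte genes, on a list that leaves out the 10, numbered 20, of which 17 were tested, 12 with a fold change above 0 and 5 below, and none passed the threshold. Their median of 0.23 was close to that of the 10 genes. The most abundant were Mcam (539.5 and 643 FPKM in wild-type and Shb-inactivated libraries), Ednrb (347 and 460.5 FPKM) and Gja4 (19.0 and 22.4 FPKM), all of which are also known in endothelium. Smooth muscle contractile genes numbered 18, with 13 tested, 11 above 0 and a median of 0.18, and none passed. Tpm1 was 186 and 219 FPKM, Cald1 74.8 and 84.8 FPKM, and Smtn 35.4 and 41.1 FPKM. Over the 10 libraries 12 of the 18 had a mean of at least 1 FPKM, and the means ran from 0.071 FPKM for Cnn1 (calponin) and 0.073 for Myocd (myocardin) through 1.87 for Myh11 (smooth muscle myosin) and 28.5 for Myl9 (a myosin light chain) to 206 for Tpm1. Fibroblast markers, summed to 114 to 452 FPKM in wild-type and 36.5 to 592 FPKM in Shb-inactivated libraries over 14 genes. Their median fold change was -0.47 (9 tested, 3 above 0), opposite in sign to that of the mural genes. Col3a1 was 125.5 and 97.2 FPKM, Col1a1 57.4 and 38.1 FPKM, and Col1a2 45.8 and 35.6 FPKM.

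Endothelial genes that act on mural cells beside PDGF-B numbered 16, with 15 tested, 11 above 0, a median of 0.23 and none past the threshold. S1pr1, a receptor through which endothelial cells tighten their contact with pericytes, was 218 ± 30.8 and 309 ± 53.4 FPKM. Its log2 difference was 0.49 (SE 0.15, limma p = 0.00796, adjusted 0.989; exact permutation p = 0.00952). Angpt2, which loosens that contact, was 276 ± 109 and 432 ± 306 FPKM, with 1047 FPKM in Shb-inactivated replicate 5. Cxcr4, a chemokine receptor of sprouting cells, was 197 and 267 FPKM.

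Genes whose pattern over the 10 libraries was most like that of Pdgfb, among 8647 genes with a mean of at least 5 FPKM, were Mapk12 (Spearman rho 0.99), and Jag2, Ddb1, Hs3st3b1 and Ier5l (each 0.98). Over the 7 libraries without the myeloid-rich ones their rho was 0.93 to 0.96. Jag2, a Notch ligand, was 15.9 to 43.1 FPKM. Most like the mean of the 9 mural genes were Kctd11 and Casp6 (each 0.99), Col6a2 (0.98), Higd1b (0.97) and Pgf (0.96), with 0.93 to 0.96 over the 7 libraries. Higd1b, a gene of the pericyte list, was 0.81 to 14.3 FPKM, and Pgf, which encodes placental growth factor, was 15.9 to 139.9 FPKM. All of these comparisons share library composition, and the ranking of so many genes over 10 libraries is a description.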

How the data were processed

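The members and lists were chosen with earlier results of these data known. Per the labels' protocols, ribosomal RNA was depleted and stranded total RNA libraries were made. The authors deposited FPKM per gene symbol, 1 file per library, with GRCm38, Cufflinks 2.2.1 and TopHat2 2.1.1 listed in the submitters' processing notes. The strand setting and annotation are not given in the sources at hand. Decimal commas were read as decimal points.

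Values were taken as log2(FPKM + 1), which understates changes of low genes. The 12805 genes that reached 1 FPKM in 4 or more of 10 libraries were tested, all 10 members among them. The comparison of groups used limma (version 3.58.1, under R version 4.3.3), two-sided, with a mean-variance trend, no covariate and Benjamini-Hochberg adjustment over all genes. Single genes were also compared by an exact two-sided permutation test over 210 splits (126, 84 or 35 with libraries left out). The limma step was tested on simulated data. The labels name no separate animal for a library, so p-values reflect the spread among these libraries, which may be in part technical.

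Named genes were the members, Shb, Pecam1 and Cdh5, the PDGF family, the 3 most abundant genes of every other list, and the 5 most alike in pattern. Gucy1a1 and Gucy1b1 were matched by older symbols. Pdpn and Slc45a2 were not analysed here. Gene positions came from GENCODE vM21 and RefSeq GRCm38.p6. The printed windows stop at the outermost start in either. Replicate numbers were not used to pair the libraries in the main fit. Plots used matplotlib 3.10.9.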

Additional observations from a re-analysis of the deposited data

Results flagged for a closer look

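Among 63 genes in 2 groups each (126 sets of libraries), 24 had a highest or lowest library set apart from its group by a gap test at the 95% level. The gap test was run on FPKM, and gaps on the log2 scale were not tested. Chance gives about 1 in 20 for independent sets of normally distributed values. These sets share libraries and FPKM need not be normal, so that rate is only a rough guide.

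Shb-inactivated replicate 5 was the library set apart for 2 of the 10 genes, Abcc9 (138 FPKM, the next 76.2) and Kcnj8 (195 FPKM, the next 73.8). It also stood highest for Pecam1 (1237 FPKM), Pdgfd (77.7), Tpm1 (372), Angpt2 (1047), Cxcr4 (501), Emcn (849), Esm1 (2449) and Kcne3 (1367), and Igfbp3 was listed at 0 there against 3248 to 4235 FPKM in the other inactivated libraries. Rgs5, Pdgfrb, Acta2, Tagln and Des were also highest in it, without passing the test.

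Each of the following was highest within its own group. Among wild-type libraries replicate 3, myeloid-rich, was highest for Lyz2 (2944 FPKM), C1qa (588), C1qb (537), Pf4 (926), Pmp22 (102, against 124 in Shb-inactivated replicate 3), Egr2 (26.8), Pdgfc (7.47) and Tnni2 (1.75). Replicate 1 was the highest wild-type library for Tyrp1 (337 FPKM) and Ndst1 (28.1, against up to 36.3 in Shb-inactivated libraries). Among Shb-inactivated libraries replicate 4 was highest for Dct (132 FPKM) and Pmel (79.9), both below the 419 and 175 FPKM of wild-type replicate 1, and replicate 6 for Col1a1 (127 FPKM).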

How the results depend on the processing

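No setting gave any gene past the threshold: the count was 0 under all 26 alternatives, with 184 to 1023 genes at an unadjusted limma p under 0.05 (442 as reported). Of 257 fold changes of the 10 genes under alternatives, 209 kept their sign and 48 turned, and all stayed short of the threshold. Abcc9 (0.44 to 0.80, unadjusted p 0.00797 to 0.17) and Kcnj8 (0.21 to 0.85) stayed above 0 in every one. The median of the 10 genes, 0.24 as reported, ran from -0.55 with the endothelial covariate to 0.57 with the fibroblast covariate. Without 1 library each it ran from 0.02 to 0.46.

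Fold changes that turned are given in the order Pdgfrb, Rgs5, Cspg4, Notch3, Acta2, Tagln and Des. They were -0.30, -0.25, -0.23, -0.19, -0.37, -0.027 and -0.14 with array weights, whose estimation stopped before full convergence, -0.37, -0.47, -0.15, -0.13, -0.51, -0.31 and -0.24 with the melanoma covariate, and -0.83, -0.61, -0.62, -0.75, -0.89, -0.44 and -0.48 with the endothelial covariate (Pdgfb -0.23). With the myeloid covariate Cspg4, Notch3 and Acta2 were -0.10, -0.041 and -0.16. Without the 3 libraries low in snoRNA Pdgfb, Pdgfrb, Cspg4, Notch3 and Acta2 were -0.021, -0.17, -0.25, -0.11 and -0.10. The cause was not tested. Without 1 library each, ranges were -0.026 to 0.63 for Pdgfrb, -0.15 to 0.30 for Cspg4, -0.12 to 0.45 for Notch3, -0.27 to 0.45 for Acta2 and -0.010 to 0.46 for Tagln.

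With the replicate block the same 7 genes were -0.14, -0.087, -0.084, -0.057, -0.45, -0.32 and -0.12, and the count of calls stayed at 0. Libraries of the same number had deviations from their group means correlated at 0.436, -0.319, 0.707 and -0.546. These values cannot tell whether equal numbers mark shared handling, which the sample titles do not state. The median r of Pdgfb with the 9 mural genes, 0.61 as reported, was 0.83 without the 3 libraries low in snoRNA and -0.026 without the 3 myeloid-rich ones, a choice made after seeing the data, as was the scaling to Pecam1. Single fragments may weigh most in wild-type replicate 1 and Shb-inactivated replicate 2. Low genes such as Cspg4, Des and Notch3 may be the least precise there.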
